A study of Mus musculus with 6 samples.

Results

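Distal appendages are the blades that crown one end of the mother centriole, and 8 genes that build or serve this end of the centriole were followed in the hippocampus of WT and Prmt9 KO mice. The genes were Fbf1, Cep164, Cep83, Cep89, Sclt1, Ttbk2, Odf2 and Ofd1. They were chosen by symbol and mapped through the GENCODE M21 annotation of GRCm38 to 8 of the 36008 genes of the deposited gene table, and to 76 annotated transcripts, all of which had values. Fbf1 came into view because one of its introns had been picked by the study for RT-PCR on the basis of these mice, so the direction of that intron is not independent evidence here.

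A cell that grows a primary cilium first docks its mother centriole to a membrane through the distal appendages. Cep83 anchors the appendages, Cep89 and Sclt1 are further parts of the blade, Fbf1 fills the space between the blades, and Cep164 at the outer side recruits the kinase Ttbk2, which starts the growth of the cilium. Odf2 is needed for the appendages to form, and Ofd1 sits at the distal end of the centriole. Neurons and astrocytes of the hippocampus carry a primary cilium, whereas ependymal cells and the epithelium of the choroid plexus carry many cilia each.

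The RNA was polyadenylated RNA of hippocampus from 2-week-old female B6J mice, 3 WT and 3 Prmt9 KO. The KO mice carried a germline deletion of Prmt9 exon 5 in all tissues, made with a CMV-Cre, and the WT mice were same-sex littermates. Whole tissue was sequenced, so fewer cells of a type and less RNA per cell cannot be told apart. Nothing in the labels says how the 6 samples were spread over litters or preparation days, so a p-value measures only the spread between these samples.

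Prmt9 itself was at 11.8, 15.3 and 15.0 TPM in the WT mice and at 3.93, 4.61 and 4.67 TPM in the KO mice, where TPM is the share of all transcripts held by a gene, corrected for length and scaled to a fixed total. No KO value reached a WT value, so no library went against its label. Estimated counts summed to between 194098391 and 286771677 per mouse. WT mouse 1, and less so KO mouse 1, stood apart from the other 4 mice along the first principal component, which held 67.4% of the variance, and 37.4% of transcripts were at 0 in WT mouse 1 against 22.8% to 24.8% elsewhere. Of the 10 lists of cell type markers, none had a summed TPM that separated the genotypes. The 5 excitatory neuron markers summed to 1664, 2841 and 2768 TPM in WT mice and to 1749, 2797 and 2672 TPM in KO mice, with mouse 1 the lowest of each group. The 6 choroid plexus markers ran from 612 in WT mouse 2 to 7271 in WT mouse 1, with KO mice between 868 and 3348. Summed TPM of the 8 multiciliated ependymal markers was 87.9 in WT mouse 1, 41.6 and 40.4 in the other WT mice and 54.5 to 57.2 in KO. No marker of any list was at 0 in every mouse. Both mice numbered 1 stood apart in other lists, with 2040 and 1065 TPM of the 5 oligodendrocyte markers in WT and KO mouse 1 against 7438 to 10730 in the other 4 mice, and 35.4 and 37.0 TPM of the 5 markers of proliferating cells against 12.5 to 14.5. The part of these cells in the levels below was not tested.

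All 8 genes were measured in every mouse, over a wide range of levels. Odf2 was the highest, at 81.0, 133 and 139 TPM in WT and 109, 133 and 140 TPM in KO mice. Fbf1 came next, at 51.3, 76.4 and 78.1 TPM in WT and 55.2, 68.7 and 72.6 TPM in KO. Ofd1 was the lowest, at 2.42, 3.25 and 3.33 TPM in WT and 3.46, 3.70 and 4.06 TPM in KO. Mouse 1 was the lowest of its group for all 3 of these genes, in both genotypes. Of the 15200 genes with a mean of at least 1 TPM, 90.9% had a lower mean than Odf2, 81.6% a lower mean than Fbf1 and 16.2% a lower mean than Ofd1, and the median gene stood at 19.5 TPM.

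Between these ends lay the other 5 genes. WT means were 23.0 ± 3.9 TPM for Cep89, 21.6 ± 1.9 for Cep83, 13.7 ± 1.1 for Cep164, 12.5 ± 4.7 for Ttbk2 and 8.54 ± 2.90 for Sclt1 (SD, n = 3 each). In the order from Odf2 through Fbf1, Cep89, Cep83, Cep164, Ttbk2 and Sclt1 to Ofd1, the ranges of neighbours over all 6 mice did not touch for Odf2 and Fbf1, Fbf1 and Cep89, Cep83 and Cep164, or Sclt1 and Ofd1. Cep89 and Cep83 overlapped in WT and not in KO mice. Cep164 overlapped Ttbk2 in both genotypes, and so did Ttbk2 and Sclt1, although Ttbk2 was above Sclt1 in each of the 6 mice. Within WT, mouse 1 had 7.05 TPM of Ttbk2 against 15.0 and 15.5, and 5.19 TPM of Sclt1 against 10.3 and 10.2.

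**Figure D1:**
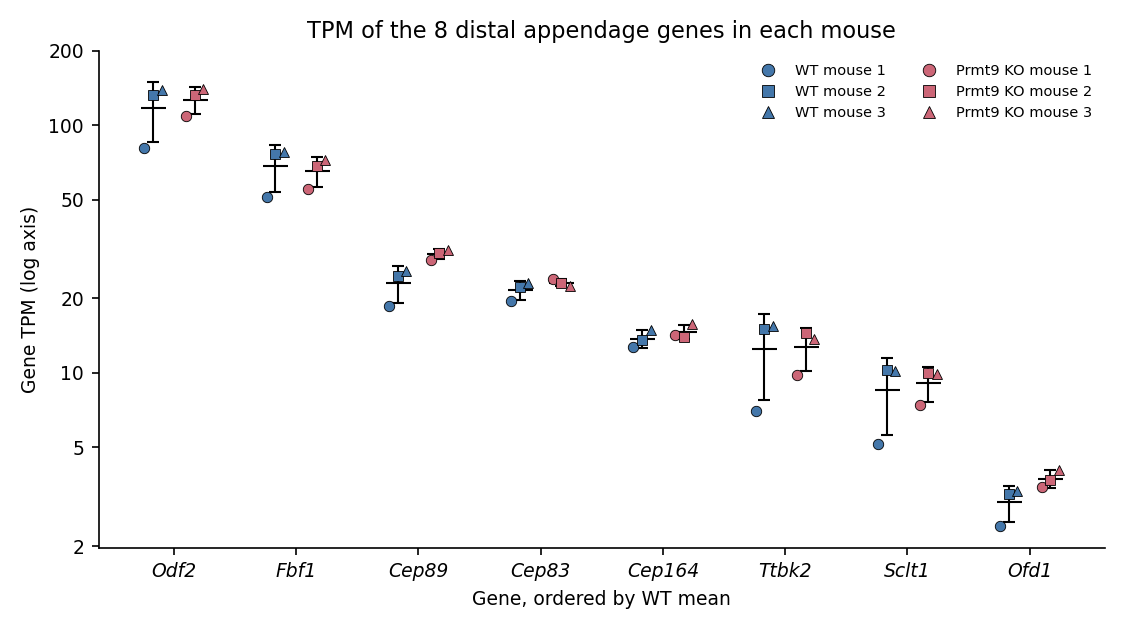
Gene TPM on a log axis for the 8 genes, ordered by WT mean, with a point per mouse (circles, squares and triangles are mice 1, 2 and 3), and the group mean ± SD in black. Levels run from 2.42 TPM of Ofd1 to 140 TPM of Odf2, and the KO points of Cep89 and Ofd1 all lie above the WT points.

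The first comparison asked whether loss of Prmt9 changed the amount of these mRNAs. None of the 8 genes was called by edgeR's quasi-likelihood test, for which a call took a change of over 1.5-fold and an adjusted p under 0.01, beside a background of 0.0% of 20315 genes. Prmt9 itself, with a log2 fold change of −1.71, missed this limit (edgeR, adjusted p = 0.0327), so the lack of a call does not show that a gene was unchanged. At an unadjusted p below 0.05, 1 of the 8 genes passed, Cep89, against 1.24% of all genes, or 252. With the replicate number as a block, 3 of the 8 passed, Cep89, Fbf1 and Ofd1, against 5.75% of all genes. DESeq2 also called none of the 8, and it called 2 of 35865 genes in all. Of the 8, Cep89 and Ofd1 had an unadjusted p below 0.05 by DESeq2, against 1.46% of all genes. The median log2 fold change of the 8 was 0.05, beside −0.01 for all genes tested. Fold changes on the log2 scale lay between −0.15 and 0.27, with standard errors of 0.09 to 0.20.

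Cep89, a part of the appendage blade, had the largest fold change of the 8 by edgeR. It was at 18.6, 24.6 and 25.9 TPM in WT and 28.6, 30.6 and 31.5 TPM in KO mice, a KO mean 1.31 times the WT mean. In CPM, counts scaled to the depth and composition of each library, it was at 20.99, 20.3 and 21.6 in WT and 26.3, 24.8 and 24.96 in KO. On either scale all KO mice lay above all WT mice, so the 3 pairs of same-numbered mice share a sign by construction. The log2 fold change was 0.27 (edgeR, SE 0.09, adjusted p = 0.9999). Before adjustment edgeR gave p = 0.0219, and an exact two-sided permutation test of its TPM gave p = 0.1, the smallest that 3 mice against 3 allow.

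Ofd1, the X-linked gene of the centriole end, was the other gene without overlap. Its CPM was 7.23, 7.53 and 7.67 in WT and 8.85, 8.61 and 9.29 in KO mice, a log2 fold change of 0.25 (edgeR, SE 0.11, adjusted p = 0.9999). As the groups did not overlap, each of the 3 same-numbered pairs was higher in KO by construction. The gene has a single annotated transcript, so this difference could not be split further. Its start overlaps that of Trappc2 on the opposite strand, and the strand setting of the quantification is not given in the sources used here.

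In TPM, 2 of the 8 genes thus had groups that did not overlap, both higher in KO, against 5.97% of the 15200 genes. Without WT mouse 1 the number was 5, as Fbf1, Sclt1 and Ttbk2 were then lower in all KO mice, and the background was 34.8%. Without WT mouse 3 it was 4, with Cep164 and Cep83 added on the higher side, and the background was 9.42%.

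In TPM, though not in CPM, Fbf1 was the one gene of the 8 with a KO mean below the WT mean, 65.5 ± 9.1 TPM against 68.6 ± 15.0 TPM (SD, n = 3 each). Its same-numbered TPM differences were 3.92, −7.71 and −5.44, which do not share a sign. In CPM, Fbf1 was at 99.8, 110 and 111 in WT and 90.2, 97.3 and 100 in KO mice. The groups then overlapped by KO mouse 3 and WT mouse 1 alone, and all 3 same-numbered differences were negative, from −12.2 to −9.60. The log2 fold change was −0.15 (edgeR, SE 0.10, adjusted p = 0.9999, or 0.7896 with the replicate block).

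For the remaining 5 genes the difference in mean TPM was smaller than the SD of the WT mice. Cep83, the anchor of the appendages, had a log2 fold change of 0.06 ± 0.09, and Cep164, the recruiter of Ttbk2, one of 0.10 ± 0.09 (edgeR, standard errors). The values were 0.02 ± 0.17 for Sclt1, −0.02 ± 0.20 for Ttbk2 and 0.04 ± 0.12 for Odf2. The signs of these last 3 values changed with the processing or with the mice left out. Ttbk2 shares the interval and strand of a Cdan1 transcript, so the division of shared reads between the 2 genes is uncertain.

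**Figure D2:**
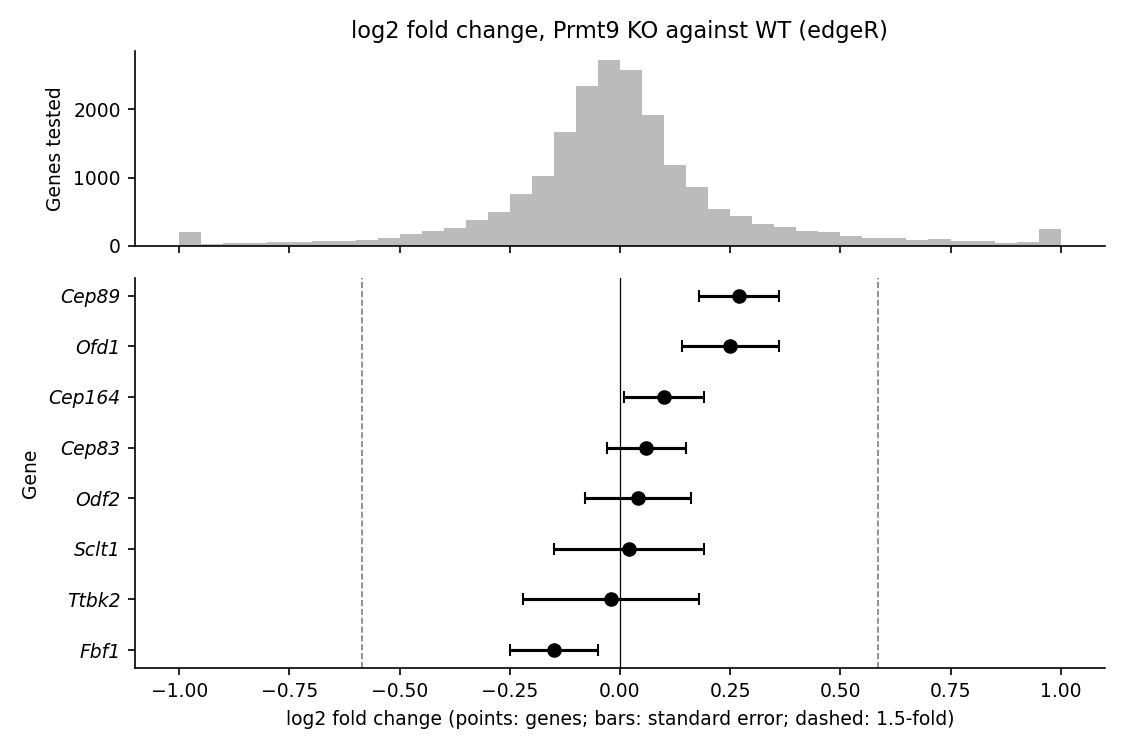
Upper panel, number of the 20315 genes tested by log2 fold change of Prmt9 KO against WT, with genes beyond −1 or 1 gathered in the end bars. Lower panel, the 8 genes as points with standard errors and dashed lines at a 1.5-fold change, all lying between −0.15 and 0.27 and inside those lines.

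The mRNA of a gene is a mixture of annotated forms, and only part of it codes for protein. The annotation marks forms as protein coding, as substrates of nonsense-mediated decay (an early stop codon lies upstream of an exon junction), as forms that retain an intron, or as processed transcripts without a coding sequence. Protein-coding forms held a share of 0.9502 of Ttbk2 TPM in WT and 0.948 in KO, and 0.643 and 0.678 of Cep164 TPM. For Fbf1 they held 0.472 in WT and 0.445 in KO, for Cep89 0.328 in both, and for Sclt1 0.182 and 0.208. Sclt1 was thus the gene with the smallest coding share. TPM divides counts by length, so that short forms weigh more than they do in reads. Odf2-221, an intron-retaining form of 673 bases, was the largest single Odf2 form with a share of 0.311 to 0.356 of TPM, yet it held 0.0967 of the Odf2 counts in WT and 0.0940 in KO. By counts, protein-coding forms held 0.863 of Odf2 in WT, 0.707 of Fbf1 and 0.244 of Sclt1.

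**Figure D3:**
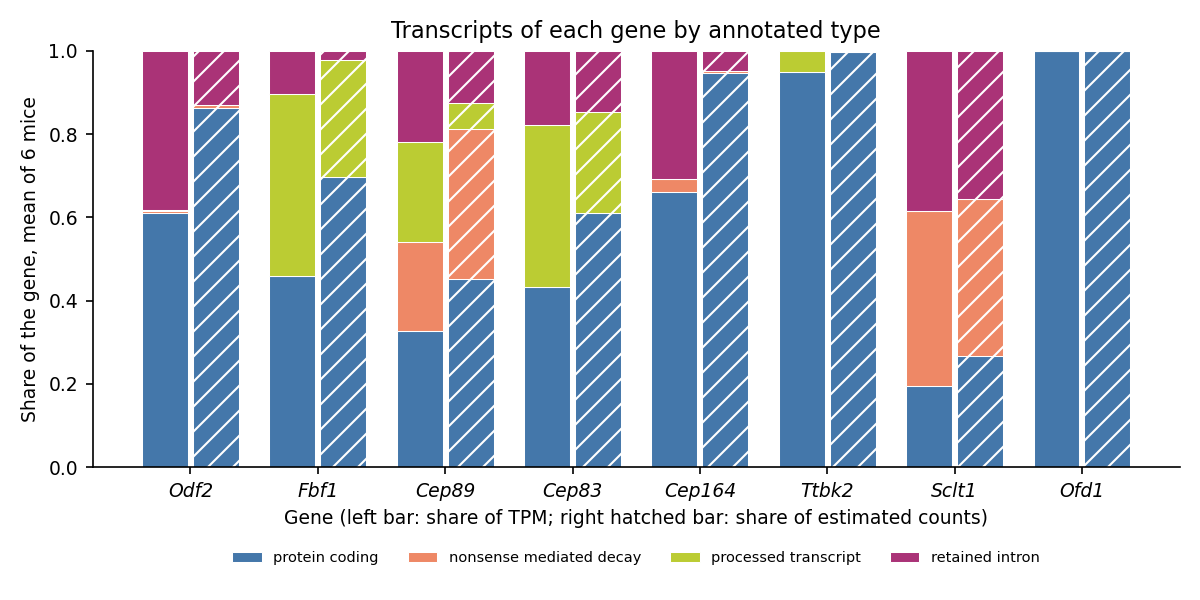
Share of each gene held by its transcripts of each annotated type, as the mean of the 6 mice, on an axis from 0 to 1. Plain bars are shares of TPM and hatched bars shares of estimated counts, and the protein-coding part of Odf2, Fbf1 and Cep164 is larger in counts than in TPM.

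The next comparison asked whether the mixture of forms differed between genotypes. A Simes test over the transcripts of a gene (edgeR) called no gene of the 7 that have more than 1 transcript, beside 0.162% of 13560 genes called at an adjusted p below 0.01. All 7 genes had an adjusted p of 1. Of single transcripts, 0 of 61 tested were called for expression by edgeR against 0.0% of 75661, and DESeq2 also called 0 of the members' transcripts, among 110 called in all. At an unadjusted p below 0.05, 3 of the 61 passed, against 1.61% of all transcripts: Fbf1-204, Cep89-204 and Sclt1-205. Of 37 transcripts with a mean share of at least 5% of their gene, the shares of 8 did not overlap between the genotypes, 3 higher and 5 lower in KO, against 9.38% of 39904 such transcripts. Without WT mouse 1 the number was 16, with a background of 28.5%. Shares of 1 gene sum to 1, so the 8 are not independent of each other. They belonged to Fbf1, Cep89 and Cep83.

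The Fbf1 form Fbf1-204 (ENSMUST00000125980, 13 exons, 1992 bases) keeps the intron between exons 20 and 21 of the main coding form Fbf1-202, which has 29 exons. This is the intron the study followed by RT-PCR, at chr11:116148044-116148120 (GRCm38, reverse strand), and it is shown with 30 bases of exon on each side, the intron in capitals, above the joined exons of Fbf1-202 and the primers of the study.
Fbf1-204: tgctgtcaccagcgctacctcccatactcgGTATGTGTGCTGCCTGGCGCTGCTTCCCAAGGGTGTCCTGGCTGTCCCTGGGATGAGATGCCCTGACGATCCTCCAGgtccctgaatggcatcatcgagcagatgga
Fbf1-202: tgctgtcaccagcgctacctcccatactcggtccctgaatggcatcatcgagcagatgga
Forward primer: ggcatccatcctggagat
Reverse primer: ctcgcaattgctcatcttgc
The intron begins with GT and ends with AG, and 62.3% of its 77 bases are G or C. It is among the shortest of the 28 introns of Fbf1-202, which run from 74 to 1808 bases with a median of 619. Of all 257263 annotated introns of at least 30 bases, 0.788% are no longer than 77 bases, and of the 7666 retained introns compared here 5.61% are. Fbf1 has 6 introns under 100 bases in its main coding form, whereas the main coding forms of the other 7 genes have 1 or none.

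Reading the frame of Fbf1-202 through the intron meets no stop codon inside it. Because 77 bases leave a remainder of 2 after division into codons, the frame shifts, and the first stop codon is codon 804, which begins after the first 5 bases of exon 21. The annotated coding sequence has 1173 codons. The annotation itself gives Fbf1-204 no coding sequence. The primers match 4 Fbf1 forms, with a product of 325 bases from Fbf1-204 and of 248 bases from Fbf1-201, Fbf1-202 and Fbf1-208.

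Retention was measured as PSI, the TPM of Fbf1-204 divided by the TPM of the 4 forms that keep or remove this intron. PSI was 0.112, 0.101 and 0.0744 in WT and 0.170, 0.134 and 0.155 in KO mice. All KO mice lay above all WT mice, and the same-numbered differences were 0.0577, 0.0326 and 0.0802. The mean difference was 0.0568 (limma, adjusted p = 1). Before adjustment limma gave p = 0.0203, and the exact permutation test, two-sided, gave p = 0.1. The TPM of Fbf1-204 itself was 3.31, 4.17 and 3.04 in WT and 5.54, 4.92 and 6.08 in KO, which do not overlap (edgeR on its counts, log2 fold change 0.58, SE 0.23, adjusted p = 1). From estimated counts, mean PSI was 0.0404 in WT and 0.0669 in KO, a smaller difference whose groups again stood apart.

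**Figure D4:**
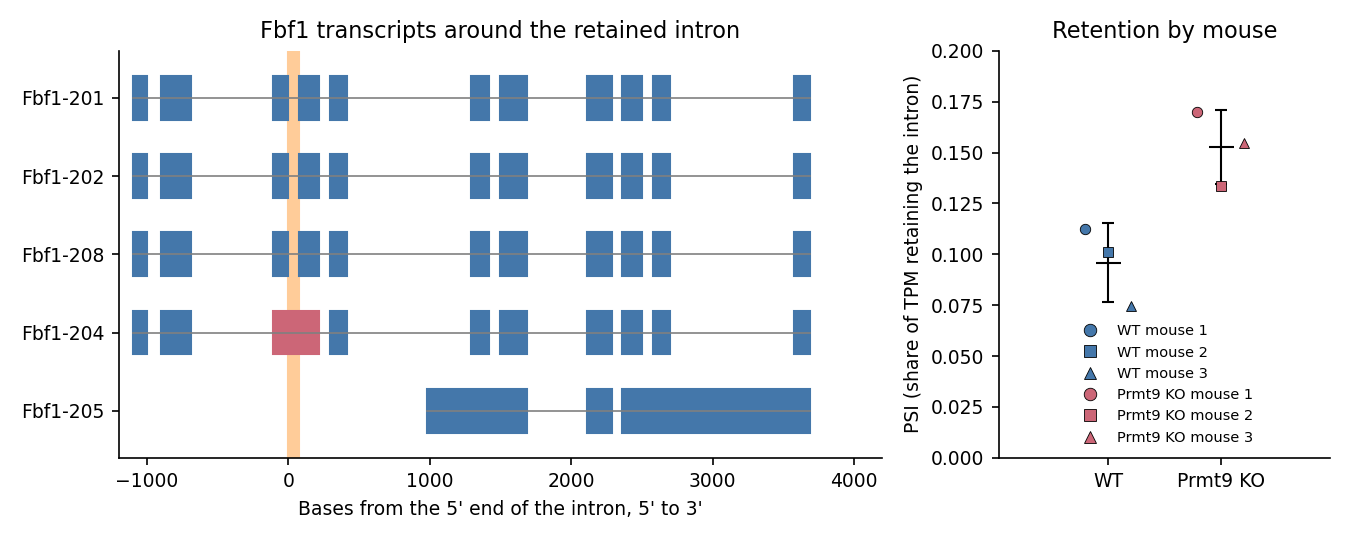
Left, exons (boxes) of 5 Fbf1 transcripts by distance from the 5′ end of the 77-base intron (orange band), with the exon of Fbf1-204 that runs through it in red; Fbf1-205 lies downstream. Right, PSI in each mouse with mean ± SD, 0.0744 to 0.112 in WT and 0.134 to 0.170 in Prmt9 KO.

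Like this intron, the other 5 annotated retention events of Fbf1 were not called, and 3 of them were not tested. Fbf1-207, a form of 763 bases at the 5′ end of the gene, keeps an intron of 323 bases at chr11:116167229-116167551 that Fbf1-203 removes. Its PSI was 0.499, 0.652 and 0.661 in WT and 0.699, 0.690 and 0.713 in KO mice (limma, adjusted p = 1). The KO mice were again all above the WT mice, by a narrow margin for WT mouse 3. Against Fbf1-209, whose splice site lies 10 bases away, the same form gave 0.913 to 0.961 in WT and 0.966 to 0.968 in KO (limma, adjusted p = 1). These 2 values share Fbf1-207 and are 1 observation. The other 3 introns, of 882, 80 and 82 bases, are all kept by Fbf1-205, so that 1 PSI stands for them. It was 0.0345 ± 0.0104 in WT and 0.0396 ± 0.0025 in KO (SD, n = 3 each), with overlap, and was below the limits for the test.

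Among the retained introns of all genes, 5.88% of 7666 had KO values above all WT values without overlap. The Fbf1 introns that met the limits did so too, but they rest on 2 forms, Fbf1-204 and Fbf1-207, and the first was picked by the study on these mice, so nothing is read from their count. The 3 annotated retained introns of the other members, in Odf2 and Cep164, had mean PSI values below 0.05 in both genotypes and were not tested. Odf2-216 keeps 91 bases with a PSI of 0.00838 in WT and 0.0163 in KO, and Odf2-222 keeps 2292 bases with 0.0247 and 0.0252. Cep164-208 keeps 1039 bases, with 0.0371 ± 0.0027 in WT and 0.0441 ± 0.0079 in KO (SD, n = 3 each). WT and KO mice overlapped for all 3. Over all event kinds, 33 of 49 annotated events of the 8 genes met the limits, none was called by limma (background 0.0% of 23515) and 2 had an unadjusted p below 0.05, against 3.18%. Without WT mouse 3, or without KO mouse 1, none of the 33 did. The PSI of 4 of the 33 did not overlap, against 10.6%, and 3 of the 4 were the Fbf1 introns. The study counted reads for each splicing event and reported altered events in many genes of these mice. PSI here rests on the TPM of annotated transcripts, so the lack of a call does not show that splicing was unchanged.

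A further 3 Fbf1 forms had shares without overlap. Fbf1-211, a processed transcript of 674 bases, held 0.243, 0.255 and 0.248 of Fbf1 TPM in WT and 0.194, 0.228 and 0.236 in KO mice. Its count shares, with means of 0.0461 and 0.0419, overlapped. Fbf1-207 held 0.0669, 0.104 and 0.111 in WT and 0.112, 0.119 and 0.118 in KO, also with overlap in counts. Fbf1-203, a coding form of 1410 bases, held 0.0597 ± 0.0065 in WT and 0.0497 ± 0.0034 in KO (SD, n = 3 each), apart on both scales. The main form Fbf1-202 held 0.402 ± 0.028 and 0.386 ± 0.029, with overlap.

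Among the 8 transcripts without overlap, the gap between the groups was widest in Cep83. The form Cep83-204 (ENSMUST00000220352) joins exon 3 of the gene to a last exon of its own, 1094 bases at chr10:94720680-94721773 (GRCm38, forward strand), inside the intron of 5904 bases that precedes exon 4. It is annotated as an intron-retaining form and lacks exons 4 to 16 of the coding form Cep83-201. The bases on both sides of the junction are shown, the following exon in capitals.
Cep83-204: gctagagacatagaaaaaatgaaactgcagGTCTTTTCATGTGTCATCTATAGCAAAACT
Cep83-201: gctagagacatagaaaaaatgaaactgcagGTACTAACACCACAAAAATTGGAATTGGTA
Cep83-204 held 0.172, 0.174 and 0.166 of Cep83 TPM in WT and 0.129, 0.126 and 0.130 in KO mice. The groups were apart by more than the range of either group, and the same-numbered differences were −0.0430, −0.0489 and −0.0370 (exact permutation test, two-sided, p = 0.1). In counts the mean share was 0.118 in WT and 0.0865 in KO, again without overlap. The amount of the form was 3.35, 3.89 and 3.83 TPM in WT and 3.07, 2.90 and 2.92 TPM in KO, or 677 to 863 estimated counts per mouse. The edgeR test of the transcript gave a log2 fold change of −0.38 (SE 0.20, adjusted p = 1). The tests across all transcripts thus did not call the difference. Cep83-201 held 0.418 ± 0.060 in WT and 0.446 ± 0.046 in KO (SD, n = 3 each), with overlap.

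In Cep89, the form Cep89-205 carries an extra exon of 197 bases, exon 17 of 20, at chr7:35429915-35430111 (GRCm38, forward strand), and is annotated as a substrate of nonsense-mediated decay. The exon is shown because it holds the stop codon, in capitals, from its base 43 on.
Cep89-205 exon 17: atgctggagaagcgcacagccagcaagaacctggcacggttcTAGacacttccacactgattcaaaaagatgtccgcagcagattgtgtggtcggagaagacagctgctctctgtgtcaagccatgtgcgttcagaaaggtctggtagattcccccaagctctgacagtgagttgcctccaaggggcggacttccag
The last exon junction lies 412 bases downstream of this stop codon. Cep89-205 held 0.231, 0.219 and 0.220 of Cep89 TPM in WT and 0.184, 0.196 and 0.197 in KO mice, with no overlap in TPM or in counts. Its amount did not separate the groups, at 4.28 to 5.69 TPM in WT and 5.28 to 6.20 in KO. The coding form Cep89-201, which lacks the exon, was at 5.81, 6.05 and 6.75 TPM in WT and 8.66, 8.07 and 8.07 TPM in KO, all KO mice higher (edgeR, transcript, adjusted p = 1). The share of Cep89-201 did not differ, at 0.273 ± 0.035 in WT and 0.274 ± 0.025 in KO (SD, n = 3 each), with overlap. PSI of the exon was 0.356, 0.380 and 0.371 in WT and 0.286, 0.336 and 0.345 in KO (limma, adjusted p = 1), apart in TPM and overlapping in counts. The forms without the exon in this PSI were Cep89-201 and Cep89-204, the latter an intron-retaining form with a higher share in KO.

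Cep89-204, an intron-retaining form of 916 bases, had 1.95, 2.76 and 2.87 TPM in WT and 4.52, 3.77 and 3.71 TPM in KO mice. No KO value was as low as a WT value, and its log2 fold change was 0.64 (edgeR, SE 0.23, adjusted p = 1). Its share was 0.109 ± 0.004 in WT and 0.133 ± 0.022 in KO (SD, n = 3 each). Cep89-208, another intron-retaining form, held 0.0761 ± 0.0176 of Cep89 TPM in WT mice against 0.0558 ± 0.0021 in KO mice. Only 106 to 202 estimated counts per mouse stood behind Cep89-208.

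The one event besides the Fbf1 intron with an unadjusted p below 0.05 was in Sclt1, a part of the appendage blade. Sclt1-205 (ENSMUST00000148769) uses a splice acceptor 19 bases upstream of that of Sclt1-201 and Sclt1-204, so that 19 bases at chr3:41671484-41671502 (GRCm38, reverse strand), in capitals, enter the mRNA.
Sclt1-205: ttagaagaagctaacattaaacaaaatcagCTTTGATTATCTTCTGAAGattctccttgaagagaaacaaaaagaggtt
Sclt1-204: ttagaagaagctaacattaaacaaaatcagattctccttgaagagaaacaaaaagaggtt
PSI of these 19 bases was the TPM of Sclt1-205 divided by that of Sclt1-205, Sclt1-201 and Sclt1-204. Sclt1-205 has 2769 bases and Sclt1-204 has 2292, so the forms differ elsewhere too and reads outside the 19 bases also enter it. This PSI was 0.191, 0.0989 and 0.211 in WT and 0.0301, 0.0256 and 0.102 in KO mice. KO mouse 3 lay above WT mouse 2, so the groups overlapped, although KO was lower in each of the 3 same-numbered pairs, by 0.161, 0.0732 and 0.109. The mean PSI was 0.167 ± 0.060 in WT and 0.0525 ± 0.0427 in KO (SD, n = 3 each). Before adjustment limma gave p = 0.0176 (adjusted p = 1), and the exact permutation test, two-sided, gave p = 0.2. Sclt1-205 itself was at 0.723, 0.478 and 1.03 TPM in WT and 0.135, 0.121 and 0.502 TPM in KO, or 46 to 329 estimated counts (edgeR, log2 fold change −1.68, SE 0.64, adjusted p = 1). Both Sclt1-205 and Sclt1-204 are annotated as substrates of nonsense-mediated decay.

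**Figure D5:**
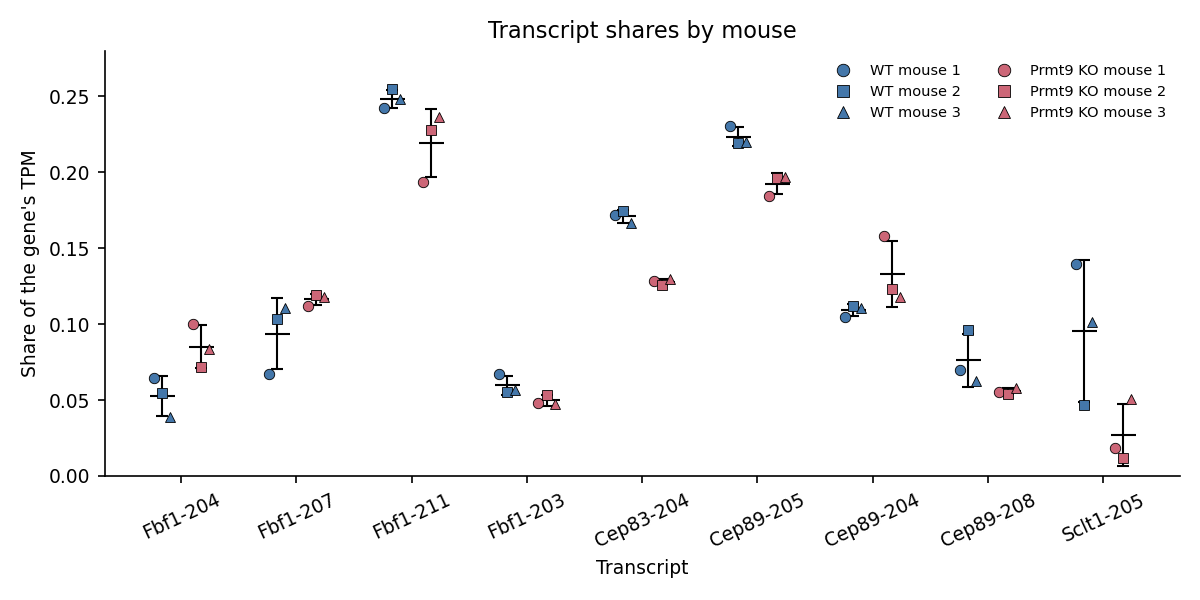
Share of the gene's TPM held by 9 transcripts in each mouse, with group mean ± SD, for the 8 transcripts whose groups did not overlap and for Sclt1-205. Cep83-204 shows the tightest groups, 0.166 to 0.174 in WT and 0.126 to 0.130 in Prmt9 KO, whereas the Sclt1-205 groups overlap.

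The other forms with a mean share of at least 5% overlapped between genotypes. In Cep164 the coding forms Cep164-201 and Cep164-204 held 0.284 ± 0.037 and 0.226 ± 0.057 of TPM in WT and 0.260 ± 0.045 and 0.248 ± 0.013 in KO (SD, n = 3 each). By counts, however, Cep164-201 held 0.4303 in WT and 0.373 in KO without overlap. The shorter coding form Cep164-207 held 0.0906 ± 0.0296 and 0.135 ± 0.043, and Cep164-206, an intron-retaining form of 553 bases, 0.263 ± 0.043 and 0.256 ± 0.039. The lone further Cep83 form, Cep83-202, held 0.382 ± 0.070 in WT and 0.396 ± 0.055 in KO, and Fbf1-208 held 0.0862 ± 0.0106 and 0.0800 ± 0.0107.

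Several forms owed their spread to mouse 1. Ttbk2-203 held 0.0424 of Ttbk2 TPM in WT mouse 1, against 0.210 to 0.244 in the other 5 mice. The other long coding forms, Ttbk2-201 and Ttbk2-202, held 0.438 ± 0.096 and 0.344 ± 0.082 in WT and 0.458 ± 0.160 and 0.258 ± 0.120 in KO, while the short Ttbk2-205 held 0.00336 to 0.0838 over the 6 mice. Odf2-203 held 0.0209 of Odf2 TPM in WT mouse 1 and 0.0999 to 0.126 elsewhere, and Odf2-206 held 0.148 in that mouse and 0.0610 to 0.0714 elsewhere. The Odf2 coding forms Odf2-204, Odf2-212 and Odf2-205 held 0.185 ± 0.010, 0.108 ± 0.016 and 0.0506 ± 0.0192 in WT and 0.199 ± 0.013, 0.116 ± 0.012 and 0.0545 ± 0.0056 in KO (SD, n = 3 each). In Cep89, the forms Cep89-209, Cep89-206 and Cep89-207 held means of 0.138, 0.0860 and 0.0548 in WT and 0.142, 0.108 and 0.0537 in KO.

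The coding form Sclt1-201 held 0.182 ± 0.035 of Sclt1 TPM in WT and 0.208 ± 0.015 in KO, less than Sclt1-204, which held 0.282 ± 0.094 and 0.291 ± 0.068 (SD, n = 3 each). The intron-retaining forms Sclt1-202, Sclt1-207 and Sclt1-203 held means of 0.153, 0.119 and 0.0781 in WT and 0.151, 0.136 and 0.0745 in KO. Sclt1-206, annotated for decay, held 0.0588 ± 0.0512 in WT and 0.0849 ± 0.0120 in KO, and was listed at 0 in WT mouse 1.

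The wider machinery of the centriole and cilium was examined through 8 lists of 92 genes, of which 90 were tested. edgeR called none of the 90, with 2 at an unadjusted p below 0.05, both higher in KO, against 1.24% of all genes, and 49 fold changes were positive and 41 negative. Median log2 fold changes of the lists ran from −0.06 for early ciliogenesis and membrane traffic to 0.08 for centriole duplication, beside −0.01 for all genes. The 2 genes were Gli1, a target of Hedgehog signalling, at 1.43, 2.32 and 2.44 TPM in WT and 2.63, 3.43 and 3.40 TPM in KO (log2 fold change 0.50, SE 0.16), and Ahi1, of the transition zone at the base of the cilium, at 96.0, 118 and 113 TPM in WT and 135, 123 and 129 TPM in KO (log2 fold change 0.24, SE 0.10). Both had an adjusted p of 0.9999, and KO mice were above WT mice without overlap for both genes. In the other 6 lists, the gene with the smallest p was Ift74 of intraflagellar transport (0.26 ± 0.13), Ehd1 of membrane traffic (−0.17 ± 0.10), Stil of centriole duplication (0.54 ± 0.40), Cep128 of the subdistal appendages (0.14 ± 0.11), Poc1b of the centriole distal end (0.14 ± 0.13) and Lrrc45, another distal appendage protein (0.09 ± 0.09), each a log2 fold change with its standard error. Lrrc45 was at 79.7, 111 and 112 TPM in WT and 100, 110 and 119 TPM in KO mice, with overlap.

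The 5 genes whose log2(TPM + 1) followed Fbf1 most closely over the 6 mice were Cdk9, Nr1d1, Dnajb12, Osbpl7 and Stx4a, with Pearson's r of 0.9993, 0.9989, 0.9987, 0.9987 and 0.9986. Cdk9, a kinase of transcription elongation, was at 76.8, 117 and 118 TPM in WT and 82.1, 105 and 110 TPM in KO mice. Like Fbf1, all 5 were lowest in WT mouse 1. As 4569 of 14187 genes had an r above 0.9 with Fbf1 and the 6 points share their libraries, this likeness and the differences between libraries cannot be told apart. Among the 8 genes, Ttbk2, Sclt1 and Odf2 followed each other with r between 0.977 and 0.993 and Fbf1 with r of 0.923 to 0.962, whereas Cep89 and Ofd1 followed each other with r of 0.983 and Fbf1 with 0.485 and 0.594.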

How the data were processed

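Stranded polyA RNA-seq libraries of 6 mice were quantified by the authors with kallisto, version 0.46.0 per the labels, against annotated transcripts. Per mouse they deposited an estimated count and a TPM for each of 118783 transcripts, and a table of gene TPM. Of the transcripts, 116622 matched GENCODE M21 by identifier, and the deposited length of 116438 of these, including all 76 of the members, was that of the annotation. Strand and other kallisto settings are not given in the sources used here.

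Gene counts were rounded sums of estimated counts. Genes and transcripts were compared with edgeR 4.0.16 (TMM, filterByExpr, quasi-likelihood test), transcript use with diffSpliceDGE and a Simes test, and PSI of annotated events with limma 3.58.1 on log2 ratios with 0.1 TPM added, limited to events whose forms summed to 1 TPM or more in each mouse and whose mean PSI lay from 0.05 to 0.95 in a genotype. Calls needed an adjusted p (Benjamini-Hochberg) below 0.01 and a fold change above 1.5 or, for events, a PSI difference of at least 0.05. DESeq2 1.42.0, other scalings, filters and pseudocounts, a replicate block and omission of single mice were alternatives. Leaving out both mice numbered 1 was added after seeing the data. The code was tested on simulated data.

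Deviations of same-numbered mice from their group means correlated over 20315 genes (r = 0.553, 0.415 and 0.383). Same-numbered differences are therefore given, and a replicate block was an alternative run. WT mouse 2 correlated as well with KO mouse 3 (r = 0.417), however, and WT mouse 3 as well with KO mouse 2 (r = 0.394). Only the mice numbered 1 thus stood out as a pair, and the pairing of mice 2 and 3 rests on their numbers alone. The main tests, permutation tests included, did not use the pairs.

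The members and lists were chosen with earlier results of these data known. The text names all 8 genes and Prmt9, their transcripts with a mean share of at least 5% or an unadjusted p below 0.05, their events without overlap or with an unadjusted p below 0.05, all their retained introns, the gene of smallest p in each list, and the 5 genes most correlated with Fbf1. Sequences come from the GENCODE M21 transcripts and the primer list of the study.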

Additional observations from a re-analysis of the deposited data

How the results depend on the processing

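The counts of genes, transcripts, usage changes and events called among the 8 genes, and of genes called in the other lists, were 0 in each alternative run. Prmt9 itself missed the limit in edgeR, so these counts of 0 do not show stability. With the replicate block the counts of calls were also 0, and the paired mean PSI difference of the Fbf1 intron, 0.0568, equals the unpaired one by construction. That PSI difference was 0.0265 with estimated counts, 0.0326 with all Fbf1 transcripts in the denominator, and 0.0461 to 0.0664 with 1 mouse left out. The 2 genes without overlap in TPM (background 5.97%) became 5 with both mice numbered 1 left out (background 51.2%) and 2 to 5 with 1 mouse left out (8.57% to 34.8%). The 8 transcript shares without overlap (background 9.38%) became 5 at a minimum share of 10% (background 9.45%), 19 without both mice numbered 1 (41.9%), and 9 to 16 with 1 mouse left out (14.9% to 28.5%). Leaving mice out can, by construction, only keep or raise such counts and their backgrounds. The cause of their size was not tested. Signs turned for Sclt1 (−0.117 without WT mouse 1, −0.009 without KO mouse 2, −0.025 without KO mouse 3 and −0.040 without both mice numbered 1, with a range of −0.117 to 0.107 over single omissions), for Odf2 (−0.036 without WT mouse 1 and −0.001 without both mice numbered 1, with a range of −0.036 to 0.107) and for Ttbk2 (0.004 with the replicate block or a term for the mice numbered 1, 0.086 without WT mouse 2 or KO mouse 1, 0.082 without WT mouse 3, 0.072 and 0.083 with limma on log2(TPM + 1) and log2(TPM + 0.1), with a range of −0.190 to 0.086), all on the log2 scale. The unadjusted p of Cep89 expression ran from 0.00166 to 0.0938 and that of Ofd1 from 0.0108 to 0.157. That of the Fbf1 intron ran from 0.00745 to 0.0664 and that of the Sclt1 event from 0.00388 to 0.128. For gene expression the smallest adjusted p of any of the 8 genes was 0.133. For transcript usage it was 0.0318, for Cep89 without WT mouse 1 (edgeR, Simes test), in a run that called 139 of 13774 genes. Forms of few counts, such as Sclt1-205, are limited by depth and by the division of shared reads between forms.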
